A study of Mus musculus with 5 samples.

Results

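Mycl and Nfib, a pair of transcription factor genes tied to small cell lung cancer, both lie on mouse chromosome 4. The 642 genes described here are the rows of the deposited count table on chromosome 4 whose mean over 5 tumours was at least 16 CPM (a read count scaled to the total of its tumour, in the usual CPM unit). They are 642 of 2873 rows on that chromosome and of 54532 rows in all. Of them, 637 are annotated as protein-coding and 5 have other biotypes. The members were chosen by their mean level, so levels are given as a description. The members just inside the threshold were Galt at 16.2, Wdr78 at 16.2 and Gpr153 at 16.3 CPM on average, and those just outside were Heyl at 15.9, 1110065P20Rik at 15.8 and Acer2 at 15.8 CPM.

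Gene expression was measured by bulk RNA-seq in flash-frozen lung tumours of mice with small cell lung cancer, a neuroendocrine tumour of the lung. All 5 tumours carry the genotype label RPP, whose letters the labels do not expand. The 2 vehicle tumours (replicates 1 and 2) were given the carrier alone, per the treatment label, and the 3 LSN tumours (replicates 1, 2 and 3) were given LSN, which the series names as an inhibitor of the mitotic kinase Aurora A. The labels give no dose, duration, age or strain, and nothing says that each tumour came from its own animal. The tumours may therefore not be independent samples, although the comparison of LSN with vehicle treats them so. The spread between samples may also in part be technical. The design text speaks of tumour cells, whereas each sample label speaks of a lung tumour. Total counts lay between 17439049 and 19766604 per tumour, and the floor of 3 counts corresponded to 0.152 to 0.172 CPM, which covers counting error only. The 14 neuroendocrine markers checked were detected in every tumour and summed to between 3444 CPM (vehicle replicate 2) and 9548 CPM (LSN replicate 2). Markers of other cells were present too. The 14 normal lung epithelium markers summed to 7659 and 11984 CPM with vehicle and to 2874, 846 and 2307 CPM with LSN. Of the 10 macrophage and monocyte markers, Lyz2, which alveolar type 2 cells also express, was at 2811 CPM in vehicle replicate 2 and between 364 and 1018 CPM elsewhere, and the other 9 summed to 217 and 529 CPM with vehicle and to 562, 380 and 367 CPM with LSN.

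MYCL belongs to the MYC family, whose proteins pair with MAX and bind the E-box, a short palindromic DNA motif, near genes of growth and metabolism. NFIB belongs to the nuclear factor I family, which binds a split palindrome and opens chromatin in developing lung and brain. Gains of the Mycl and Nfib loci have been described in mouse models of small cell lung cancer. DNA copy number was not analysed here, and what follows concerns RNA.

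To show what annotated promoters of such genes look like, 4 members were chosen with their values known. Mycl stands for the locus itself, Frrs1l for the genes high in vehicle replicate 2 and LSN replicate 1, and Espn and Arhgef16 for genes of the distal end that were low in those tumours. RefSeq promoters (build GRCm38.p6, 250 bases before to 50 after the start) were matched by symbol for 514 of the 642 members. Capitals mark CACGTG (the E-box of MYC proteins), CAGGTG (an E-box bound by repressors such as ZEB1), TTGGC followed after 5 bases of any kind by GCCAA (the nuclear factor I palindrome), GGGCGG (the GC box) and CCAAT on either strand, and adjoining or overlapping matches merge into one run.
Mycl: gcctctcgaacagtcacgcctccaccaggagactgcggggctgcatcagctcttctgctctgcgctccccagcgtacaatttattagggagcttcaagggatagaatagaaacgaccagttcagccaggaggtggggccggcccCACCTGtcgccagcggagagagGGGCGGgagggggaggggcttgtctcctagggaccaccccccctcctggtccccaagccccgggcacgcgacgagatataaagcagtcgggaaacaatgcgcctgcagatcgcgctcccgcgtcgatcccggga
Frrs1l: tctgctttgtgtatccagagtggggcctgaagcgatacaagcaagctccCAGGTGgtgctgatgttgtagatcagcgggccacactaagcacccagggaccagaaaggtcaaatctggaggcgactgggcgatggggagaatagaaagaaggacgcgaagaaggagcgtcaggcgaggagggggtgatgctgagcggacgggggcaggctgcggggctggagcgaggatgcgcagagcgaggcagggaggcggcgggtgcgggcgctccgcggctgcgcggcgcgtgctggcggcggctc
Espn: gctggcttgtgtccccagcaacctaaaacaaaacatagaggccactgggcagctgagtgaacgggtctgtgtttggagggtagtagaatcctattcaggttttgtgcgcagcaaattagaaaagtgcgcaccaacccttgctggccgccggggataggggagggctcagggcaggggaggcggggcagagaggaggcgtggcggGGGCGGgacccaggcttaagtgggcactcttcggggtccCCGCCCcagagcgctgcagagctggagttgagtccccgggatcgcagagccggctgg
Arhgef16: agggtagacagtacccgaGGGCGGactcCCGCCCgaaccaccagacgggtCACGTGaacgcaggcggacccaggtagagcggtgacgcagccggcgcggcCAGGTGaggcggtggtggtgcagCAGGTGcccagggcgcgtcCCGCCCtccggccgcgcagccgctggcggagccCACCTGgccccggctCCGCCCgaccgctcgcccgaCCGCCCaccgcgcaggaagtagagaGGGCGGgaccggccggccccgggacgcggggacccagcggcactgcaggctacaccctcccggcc
These windows lie at chr4:122995681-122995980 (plus strand), chr4:56990342-56990641, chr4:152152340-152152639 and chr4:154299846-154300145 (minus strand for the last 3), each 300 bases long. The RefSeq start lay 279 bases from the start of the deposited gene for Mycl, 0 for Frrs1l, 18 for Espn and 1781 for Arhgef16. Espn had 3 RefSeq promoters, of which the nearest was taken. The Mycl window held 1 CAGGTG and 1 GGGCGG match. That of Arhgef16 held 1 CACGTG, 3 CAGGTG and 6 GGGCGG matches. The window of Espn held 2 GGGCGG matches and that of Frrs1l 1 CAGGTG match. Over all 32619 promoters of the table, CACGTG was found in 7.20%, CAGGTG in 20.3%, GGGCGG in 35.9% and CCAAT in 37.6%. Among the 514 matched members these shares were 10.3%, 17.9%, 70.6% and 38.9%. The 2 sets are unlike, since members are genes of at least 16 CPM with 1 promoter each. The 32619 promoters were taken at any level of their gene and can hold several of the same gene. The 79 matched members whose gene starts beyond 147 Mb had 12.7%, 15.2%, 74.7% and 41.8%, and the other 435 had 9.89%, 18.4%, 69.9% and 38.4%. The nuclear factor I palindrome was found in 0.0368% of all promoters and in 1 member. A match is a description of these letters, not evidence of binding.

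The level of chromosome 4 genes as a whole differed between tumours, and LSN replicate 3 stood highest. The shift of a gene in a tumour is its log2(CPM + 1) minus its mean over the 5 tumours, minus the median of that difference over all genes of the same level on the other chromosomes in that tumour. The median shift of the 642 members was 0.36 in LSN replicate 3, with quartiles of 0.11 and 0.59, which is 1.29 times the level that the other chromosomes would give. The vehicle tumours were at -0.05 (replicate 1) and -0.01 (replicate 2), LSN replicate 1 was at -0.17 and LSN replicate 2 at -0.06. These 4 values rest in part on LSN replicate 3, which enters the mean over the tumours. Without it they were 0.03, 0.04, -0.08 and 0.02. In bulk tumours, fewer cells of a kind and less RNA per cell cannot be told apart, and this holds for every level below.

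Most members took part in the higher level of LSN replicate 3. There, 532 of the 642 members (82.9%) lay above 0, against 52.1% of all 10133 genes with at least 16 CPM on the autosomes and X. Vehicle replicate 1 had 275 members above 0 (42.8%, against 49.5% of all genes), vehicle replicate 2 had 315 (49.1%, against 49.9%), LSN replicate 1 had 174 (27.1%, against 48.5%) and LSN replicate 2 had 277 (43.1%, against 49.6%). LSN replicate 3 was the highest of the 5 tumours for 343 members (53.4%), against 22.7% of all genes, and the lowest for 36 (5.61%), against 19.1%. LSN replicate 1 was the lowest for 187 members (29.1%), against 18.5%. Differences between pairs of tumours need no mean over the tumours, but still take the other chromosomes of each tumour as zero. LSN replicate 3 had a median log2 difference of 0.42 from vehicle replicate 1 and 0.34 from vehicle replicate 2. From LSN replicates 1 and 2 it differed by 0.54 and 0.40. The largest of these differences is a 1.46-fold higher level, and 524 of 642 members shared its direction.

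Chromosome 4 was not alone in this. Among 20 chromosomes, its median in LSN replicate 3 was the 2nd highest, after chromosome 12 at 0.59 and ahead of chromosome 9 at 0.34 and chromosome 11 at 0.26. In LSN replicate 1 its -0.17 was the 2nd lowest, next to chromosome 9 at -0.20. In each of the other 3 tumours it was the 15th highest of 20, where chromosome 14 reached -0.36 in vehicle replicate 1 and chromosome 12 reached -0.71 in LSN replicate 2.

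**Figure D1:**
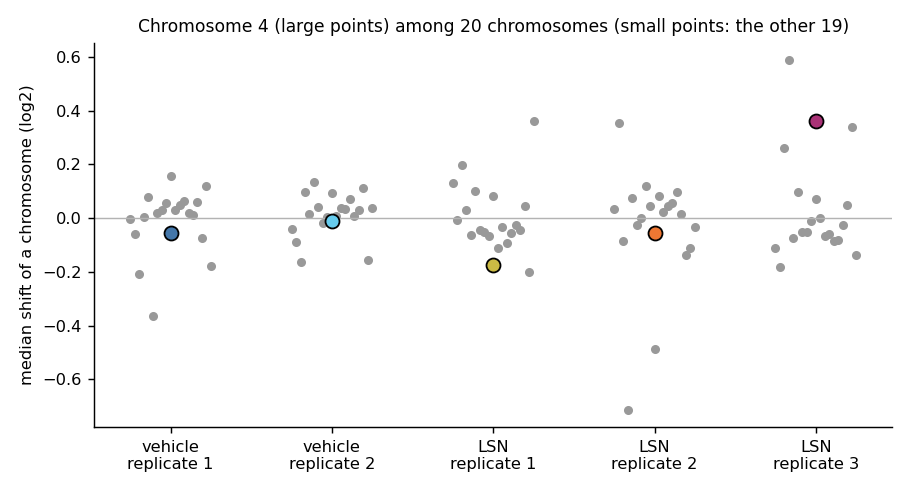
Median shift (log2) of each of 20 chromosomes in each tumour, over genes with at least 16 CPM. The large point is chromosome 4, at 0.36 in LSN replicate 3 and at -0.17 in LSN replicate 1, and small points are the other chromosomes.

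The shift of LSN replicate 3 was not even along the chromosome. In windows of 10 Mb by gene start, its median was above 0 in all 16 windows and the highest of the 5 tumours in 14. It was 0.11, 0.21, 0.03 and 0.10 in the 4 windows up to 40 Mb, of which 3 held fewer than 20 members. From 40 to 60 Mb it was 0.24 and 0.22, from 100 to 140 Mb it lay between 0.36 and 0.42 in each window, from 140 to 150 Mb it was 0.49 and from 150 Mb to the end it was 0.91. The windows between 60 and 100 Mb held 8 to 20 members each and gave 0.40, 0.43, 0.17 and 0.34. Of the 194 windows of the genome with at least 20 such genes, the last window of chromosome 4, with 59 members, was the highest in LSN replicate 3. The same window was the lowest of the 194 in vehicle replicate 2, at -0.64. The distal end was set apart with earlier results of these data known, so both ranks are a description and no test.

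**Figure D2:**
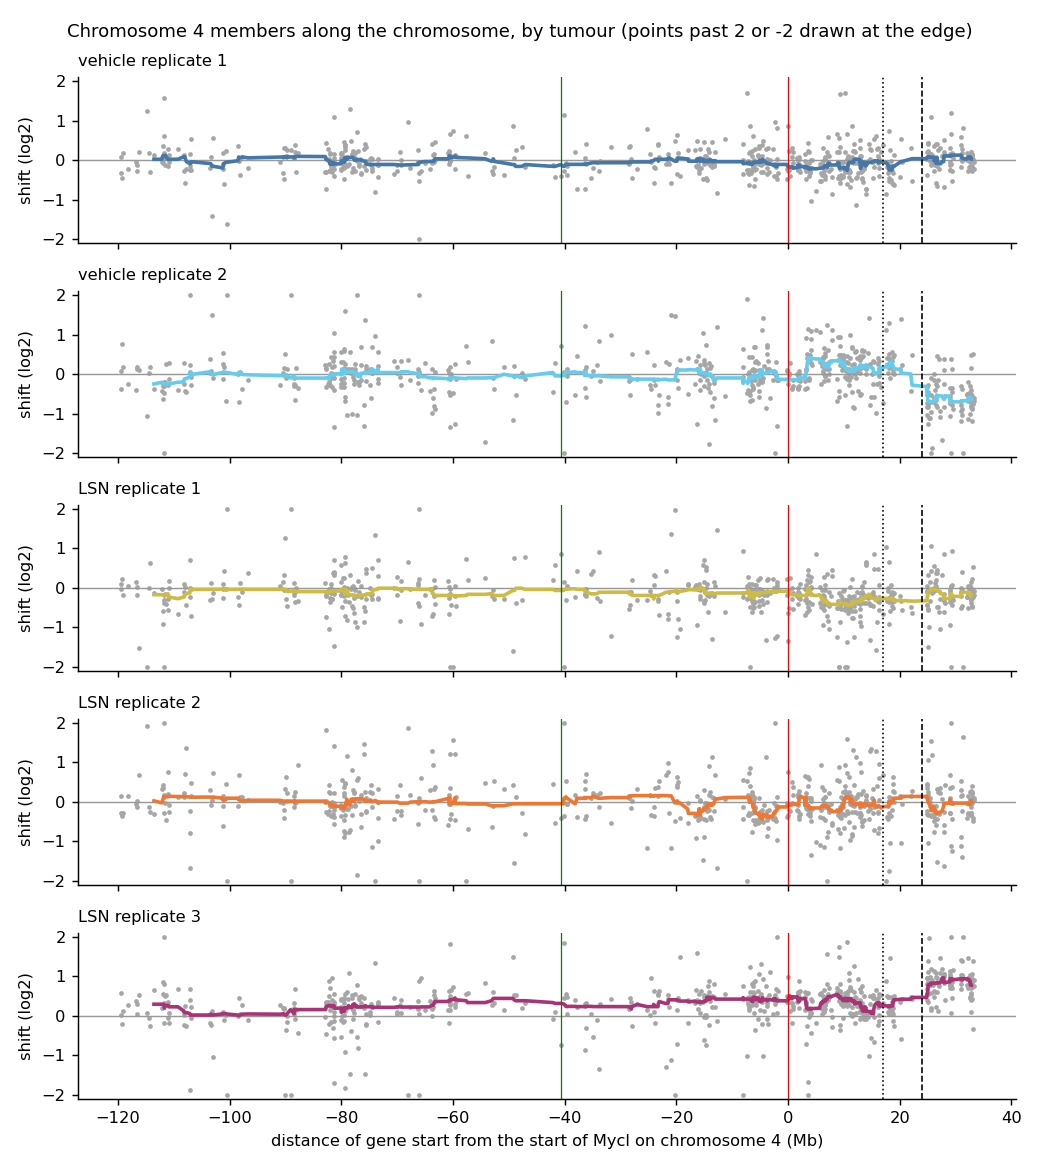
Shift (log2) of each member in each tumour by the distance of its start from that of Mycl (Mb). Grey points are genes, coloured lines the running median over 25 members, the green and red lines Nfib and Mycl, the dotted line 140 Mb and the dashed line 147 Mb. The coloured line of LSN replicate 3 lies above 0 and rises past the dashed line, where that of vehicle replicate 2 falls.

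The distal part, with gene starts from 140 Mb on, held 116 members and separated the tumours more than the 526 members before it. Its median shift was 0.77 in LSN replicate 3 (quartiles 0.44 and 0.99) and -0.54 in vehicle replicate 2 (quartiles -0.79 and 0.05). Vehicle replicate 1 was at 0.01, LSN replicate 1 at -0.18 and LSN replicate 2 at -0.03. Without LSN replicate 3, these 4 tumours were at 0.19 and -0.35 with vehicle and at 0.00 and 0.14 with LSN. Before 140 Mb the medians of the vehicle tumours were -0.06 and 0.03, and those of the LSN tumours -0.17, -0.07 and 0.32, by replicate number. LSN replicate 3 was the highest tumour for 88 of the 116 distal members (75.9%) and vehicle replicate 2 the lowest for 63 (54.3%), where over all genes these shares were 22.7% and 20.2%.

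The distal part was itself made of 2 stretches with different patterns. The 25 members between 140 and 147 Mb had a median of 0.33 in vehicle replicate 2 and 0.25 in LSN replicate 3, and 23 of them were above 0 in vehicle replicate 2, all but Arhgef19 and Vps13d. The 91 members from 147 Mb on had a median of -0.66 in vehicle replicate 2 and 0.84 in LSN replicate 3. This boundary was chosen after the values were seen. Between the stretches, vehicle replicate 2 fell by 0.98, LSN replicate 3 was higher by 0.59 and vehicle replicate 1 by 0.32, while LSN replicates 1 and 2 differed by 0.17 and -0.02. The last member before the boundary was Tnfrsf1b, a receptor for tumour necrosis factor (145213463 to 145246870), and the first after it Zfp933, a zinc-finger gene starting at 147822986. The 2.58 Mb between them held 95 rows, 60 of them pseudogenes and 17 named as zinc-finger genes, and the highest of these rows, Zfp984, averaged 9.57 CPM. Reads of such near-identical genes may be shared between rows, so the counts do not place a change within this gap. Nor need it lie in the gap. In vehicle replicate 2, Vps13d, the member before Tnfrsf1b, was at -0.42 and Tnfrsf1b at 0.49.

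From 147 Mb to the last member, over 8.42 Mb, the tumours at the top and the bottom were the same for most genes. LSN replicate 3 was above 0 for 90 of 91 members, the exception being Agrn, which encodes the matrix protein agrin. LSN replicate 3 was the highest tumour for 79 (86.8%). Vehicle replicate 2 was the lowest for 63 (69.2%), and 60 members (65.9%) showed both, against 5.77% of all genes. In pairs, LSN replicate 3 exceeded vehicle replicate 2 by a median of 1.49 (quartiles 1.02 and 1.90), or 2.81-fold, for 88 of 91 members, and vehicle replicate 1 by 0.84, or 1.79-fold. Vehicle replicate 2 was below vehicle replicate 1 by a median of 0.68, 1.60-fold lower, so that tumours with the same treatment differed. LSN replicates 1 and 2 differed by 0.02 in the median. Vehicle replicate 2 was also the tumour with the highest normal lung sum and the lowest neuroendocrine sum, and the part of these cells in the result was not tested.

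**Figure D3:**
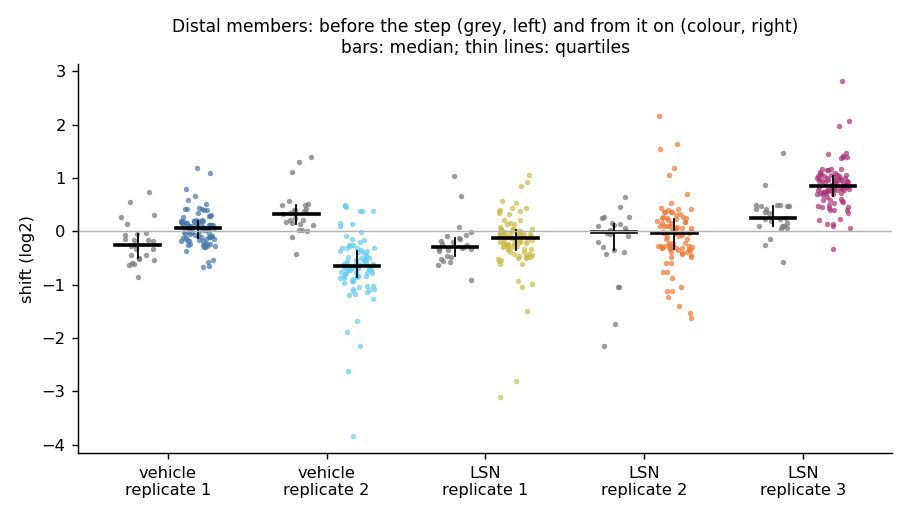
Shift (log2) of the distal members in each tumour, 25 before the step at 147 Mb (grey, left) and 91 from it on (colour, right), with medians as bars and quartiles as thin lines. Vehicle replicate 2 goes from a median of 0.33 to -0.66 and LSN replicate 3 from 0.25 to 0.84.

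Genes of very different function shared these extremes. Mtor, the kinase that couples nutrients to growth, was at 103 and 45.6 CPM in vehicle replicates 1 and 2 and at 115, 98.3 and 198 CPM in LSN replicates 1, 2 and 3. Park7, a protein of the oxidative stress response, was at 132 and 61.4 CPM with vehicle and 103, 91.7 and 229 CPM with LSN. Exosc10, a nuclease of the RNA exosome, was at 163, 71.0, 141, 110 and 315 CPM in the same order of tumours. In each of these 3 genes, vehicle replicate 2 was lowest and LSN replicate 3 highest, with the other tumours between them. Mtor and Exosc10 lie outside the rule for named genes and were chosen after their values were seen. Rere, a nuclear receptor corepressor, was at 305 and 161 CPM with vehicle and 266, 357 and 651 CPM with LSN and was also chosen so. Eno1, the glycolytic enolase, had the widest range of the energy metabolism list, at 789, 287, 306, 780 and 1687 CPM, with LSN replicate 1 as low as vehicle replicate 2.

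Other distal genes departed from this. Tardbp, an RNA-binding protein, differed little, at 502 and 427 CPM with vehicle and 458, 413 and 524 CPM with LSN, and was chosen after its values were seen. Agrn was highest in LSN replicate 1 and vehicle replicate 2, at 176 and 165 CPM, and between 83.1 and 103 CPM in the others. Camta1, a calmodulin-binding transcription factor, was at 79.1 and 158 CPM with vehicle and 228, 38.8 and 253 CPM with LSN. Chd5, a chromatin remodeller of neural cells, had its highest level in LSN replicate 1, at 129 CPM, and its lowest in LSN replicate 2, at 26.7 CPM. Vehicle replicate 2 was above 0 for 9 of the 91 members, namely Pik3cd, H6pd, Errfi1, Camta1, Gpr153, Chd5, Vwa1, Mxra8 and Agrn.

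The stretch from 130 to 140 Mb, with 109 members, was marked by another tumour. LSN replicate 1 had a median of -0.37 there (quartiles -0.54 and -0.21), the lowest of the 194 windows of the genome in that tumour, and was the lowest of the 5 tumours for 58 members (53.2%), against 18.5% of all genes. Vehicle replicate 2 was at 0.16 and LSN replicate 3 at 0.38. LSN replicate 1 lay below vehicle replicate 2 by a median of 0.55, 1.46-fold lower, with 11 of the 109 members above it, and below LSN replicate 3 by 0.75, or 1.68-fold. This window was described because of its value, so its rank is no test.

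Mycl itself (chromosome 4, 122995652 to 123002485, plus strand) varied more than the genes around it. It was at 59.3 and 62.4 CPM in vehicle replicates 1 and 2 and at 27.5, 115 and 137 CPM in LSN replicates 1, 2 and 3. LSN replicate 1 was thus lowest and LSN replicates 2 and 3 highest, with the vehicle tumours between them, and the highest level was 4.96 times the lowest. The shifts of Mycl were -0.27 and -0.13 with vehicle and -1.34, 0.75 and 0.99 with LSN. Of the 642 members, 70 (10.9%) had a wider range over the tumours than the 2.33 of Mycl.

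In LSN replicates 1 and 2, the 21 other members within 2 Mb of the start of Mycl lay near the chromosome 4 medians of -0.17 and -0.06, not near Mycl. Their medians were -0.19 and -0.14 with vehicle and -0.17, -0.08 and 0.48 with LSN. In LSN replicate 3, their 0.48 was above the 0.36 of all members. There, 20 of the 21 were above 0 (95.2%, against 82.9% of all members), and 17 were highest in that tumour (81.0%, against 53.4%). Their median range was 0.91, against 1.003 for all members and 0.877 for all genes, and 1 of the 21 had a wider range than Mycl. That gene, Col9a2, a chain of type IX collagen, was at 119 CPM in LSN replicate 3 and between 6.48 and 32.7 CPM elsewhere. The nearest members were Cap1, an actin-binding protein, and Trit1, a tRNA-modifying enzyme. Counted between the lower coordinates of the genes, Cap1 starts 137 kb before Mycl and Trit1 20.9 kb after it. Cap1 was at 194 and 232 CPM with vehicle and 202, 216 and 279 CPM with LSN, a narrow range with LSN replicate 3 on top. Trit1 was at 52.6 and 22.9 CPM with vehicle and 17.9, 21.5 and 34.8 CPM with LSN, so that its highest tumour was vehicle replicate 1. In LSN replicate 2, where Mycl had a shift of 0.75, the nearest 4 members on either side had shifts between -0.37 and 0.13. These were Zmpste24, Rlf, Ppt1 and Cap1 before Mycl and Trit1, Ppie, Pabpc4 and Macf1 after it.

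Among the MYC family, levels per length of gene (CPM per kb) were higher for Mycl than for its relatives in 4 tumours. Mycl was at 14.7 and 15.5 CPM per kb with vehicle and at 6.82, 28.6 and 33.8 with LSN. Myc (chromosome 15) was at 4.32 and 9.14 with vehicle and 5.33, 4.13 and 2.24 with LSN, and Mycn (chromosome 12) was at 4.98 and 12.4 with vehicle and 15.96, 2.23 and 3.70 with LSN. LSN replicate 1, lowest in Mycl, was the tumour with the highest Mycn. Mycbp, a MYC-binding protein encoded close to Mycl, was at 21.1, 13.7, 12.1, 22.6 and 20.7 CPM in the same order and was chosen after its values were seen.

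Nfib (chromosome 4, 82290173 to 82705750, minus strand) was lowest in the tumour where chromosome 4 as a whole was highest. It was at 320 and 658 CPM in vehicle replicates 1 and 2 and at 761, 306 and 239 CPM in LSN replicates 1, 2 and 3. LSN replicate 1 and vehicle replicate 2 were high, the other 3 tumours low, and the groups overlapped. Its shifts were -0.40 and 0.70 with vehicle and 0.85, -0.40 and -0.75 with LSN. The 25 other members within 10 Mb, a wider window because the region holds few genes, had medians of -0.07 and 0.04 with vehicle and -0.04, 0.09 and 0.29 with LSN. In LSN replicate 3, 19 of these 25 lay above 0 while Nfib lay below. The median range of the 25 was 0.97, against 1.60 for Nfib, and 7 of them had a wider range, namely Rasef, Frmd3, Ptprd, Cer1, Plin2, Mtap and Elavl2.

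The nearest members of Nfib did not share its pattern as a group. Mpdz, a scaffold protein of tight junctions, came closest, at 65.9 and 104 CPM with vehicle and 133, 58.1 and 91.2 CPM with LSN. Zdhhc21, a palmitoyltransferase, was at 73.6 and 89.2 CPM with vehicle and 99.7, 65.9 and 116 CPM with LSN. Its start lies 509 kb from that of Nfib, counted between the lower coordinates of the genes, so the gap between the genes is smaller. Cer1, whose start lies 592 kb from that of Nfib by the same count, encodes a secreted antagonist of BMP and Nodal. It went the other way, at 28.3 and 0.688 CPM with vehicle and 0.839, 84.8 and 44.0 CPM with LSN. Lurap1l, Ttc39b and Snapc3 had shifts between -0.71 and 0.54, and the more distant Dmac1 and Ptprd had shifts between -0.82 and 0.78. Mtap, a methionine salvage enzyme, was at 7.58 CPM in LSN replicate 3 and between 17.9 and 42.0 CPM elsewhere, whereas its neighbour Cdkn2a, a cell cycle inhibitor gene, was at 151 CPM there and between 102 and 144 CPM elsewhere. Cdkn2a was named after its values were seen.

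**Figure D4:**
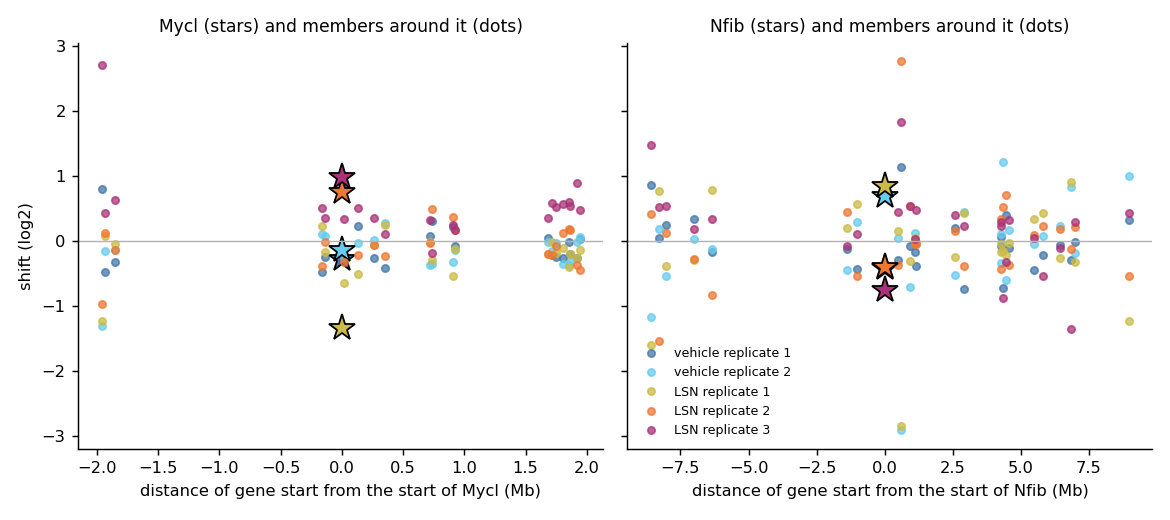
Shift (log2) of Mycl (left) and Nfib (right), drawn as stars, and of the members within 2 Mb and 10 Mb of them, drawn as dots, by distance in Mb and coloured by tumour. The stars of Mycl span 2.33 and those of Nfib 1.60, against median ranges of 0.91 and 0.97 in the members around them.

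Within the nuclear factor I family, Nfib was one of several genes at a high level per length. Nfib was at 21.4 and 44.0 CPM per kb with vehicle and 50.9, 20.4 and 15.998 with LSN. Nfix (chromosome 8) was at 8.49 and 93.0 with vehicle and 79.7, 1.07 and 21.2 with LSN, also highest in vehicle replicate 2 and LSN replicate 1. Nfic (chromosome 10) was at 34.1 and 33.4 with vehicle and 47.3, 52.5 and 23.2 with LSN. Nfia, the other family member on chromosome 4 (97772734 to 98118874), was the lowest of the 4 in every tumour, at 3.37 and 2.77 with vehicle and 1.52, 0.757 and 2.04 with LSN.

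The share of genes highest in LSN replicate 3 varied between gene groups, and is to be read beside the 53.4% of all members and 22.7% of all genes given above. Of 23 cell cycle and chromosome segregation genes at or above 16 CPM, 20 (87.0%) were highest in LSN replicate 3, with a median shift of 0.75 there and between -0.30 and -0.11 in each of the other 4 tumours. Melk, a mitotic kinase, was at 159 CPM in LSN replicate 3 and between 43.5 and 82.2 CPM elsewhere. Mad2l2, a subunit of the translesion polymerase and shieldin complexes, was at 83.1 CPM there and between 21.5 and 41.7 CPM elsewhere. Aurkaip1, a mitochondrial ribosome protein first described as interacting with Aurora A, was at 97.6 CPM there and between 33.2 and 60.9 CPM elsewhere. Rcc1, the exchange factor of Ran, was highest in vehicle replicate 2, at 216 CPM, and at 198 CPM in LSN replicate 3, with the other tumours at 64.6 to 90.0 CPM.

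Of 25 mitochondrial and energy metabolism genes, 18 (72.0%) were highest in LSN replicate 3, with a median of 0.48 there, and 8 of the 25 lie beyond 147 Mb. Slc2a1, the glucose transporter GLUT1, was at 51.0 and 21.6 CPM with vehicle and 16.1, 87.5 and 67.3 CPM with LSN, so that vehicle replicate 2 and LSN replicate 1 were low. Of 32 genes of RNA processing and translation, 19 (59.4%) were highest in LSN replicate 3, close to the share of all members. Their median there was 0.36, and 6 of the 32 lie beyond 147 Mb. Ssu72, an RNA polymerase II phosphatase, was at 65.7 and 30.0 CPM with vehicle and 45.5, 55.2 and 105 CPM with LSN. Sdf4, a calcium-binding protein of the Golgi that the list had placed there, was at 267, 126, 204, 278 and 389 CPM. Ptbp3, a splicing regulator, was instead highest in LSN replicate 2, at 649 CPM against 222 to 397 CPM. The 5 ribosomal protein genes had a median of 0.33 in LSN replicate 3. Rpl22, beyond 147 Mb, was at 340 CPM there and between 138 and 222 CPM elsewhere, while Rps6 and Rpl11 had ranges of 0.68 and 0.75.

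Of 15 genes in the list of neural and neuroendocrine regulators, 5 (33.3%) were highest in LSN replicate 3, with a median of 0.54 there. Beyond 147 Mb lie 5 of the 15. Elavl4, an RNA-binding protein of neurons, was at 142 and 558 CPM with vehicle and 703, 76.2 and 223 CPM with LSN, again high in vehicle replicate 2 and LSN replicate 1. Casz1, a zinc-finger transcription factor beyond 147 Mb, was at 136 and 37.3 CPM with vehicle and 134, 319 and 264 CPM with LSN. Of 27 tumour suppressors and oncogenes, 16 (59.3%) were highest in LSN replicate 3, again close to the share of all members, with a median of 0.60, and 12 of the 27 lie beyond 147 Mb. Pik3cd, a catalytic subunit of PI3-kinase, was at 51.0 CPM in LSN replicate 3 and 9.16 CPM in LSN replicate 2, with the others at 26.5 to 39.4 CPM. Pax5, a B cell and neural transcription factor, was at 41.2 and 23.1 CPM with vehicle and 20.2, 8.95 and 4.92 CPM with LSN.

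The lists of genes of other cells and of interferon signalling held 0 members beyond 147 Mb, where the shift of LSN replicate 3 was largest. Of 18 surface, stroma and immune cell genes, 1 (5.56%) was highest in LSN replicate 3, the median there was -0.07, and in vehicle replicate 2 the median was 0.54. Cyp4b1, a cytochrome of airway and alveolar cells, was at 40.8 and 45.4 CPM with vehicle and 12.3, 0.961 and 5.12 CPM with LSN, alongside the normal lung marker sums given above. Of 6 interferon and innate immune genes at or above 16 CPM, a small number, 1 (16.7%) was highest in LSN replicate 3. Ddx58, the RNA sensor RIG-I, was at 80.1 CPM in LSN replicate 2 and between 13.4 and 24.1 CPM elsewhere. Jak1, a kinase of interferon receptors, was lowest in LSN replicate 3, at 42.5 CPM against 104 to 169 CPM, and Trim62, a ubiquitin ligase, was highest in LSN replicate 2, at 78.8 CPM against 29.5 to 51.0 CPM. Ripk2, a kinase of NOD receptor signalling, lay between 10.4 and 26.0 CPM. The type I interferon cluster also lies on chromosome 4, and none of its genes reached 16 CPM. Of 15 interferon genes listed there, 13 had 0 counts in all 5 tumours, which allows up to 0.152 to 0.172 CPM, and the others had at most 1 count over the 5 tumours.

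Several single genes with wide ranges split the tumours into vehicle replicate 2 and LSN replicate 1 on one side and the remaining 3 on the other. Esrp1, a splicing factor of epithelial cells, was at 180 and 8.95 CPM with vehicle and 3.08, 238 and 409 CPM with LSN. Espn, an actin-bundling protein, was at 109 and 6.54 CPM with vehicle and 5.88, 205 and 192 CPM with LSN. Arhgef16, a guanine nucleotide exchange factor, was at 64.4 and 7.05 CPM with vehicle and 3.36, 111 and 249 CPM with LSN. In these 3 genes, as in Cer1, the low tumours were at most 8.95 CPM and the high ones at least 28.3 CPM, and the treatment groups overlapped.

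Other genes had the opposite split. Frrs1l, an auxiliary protein of AMPA receptors, was at 0.505 and 73.3 CPM with vehicle and 109, 0.253 and 0.307 CPM with LSN. Pou3f2, a brain transcription factor, was at 1.01 and 45.8 CPM with vehicle and 60.1, 0.0506 and 0.256 CPM with LSN. Cnr1, a cannabinoid receptor, was at 11.2 and 53.9 CPM with vehicle and 133 CPM in LSN replicate 1, and had 1 count in each of LSN replicates 2 and 3, under the floor. Calb1, a calcium-binding protein, was at 65.7 CPM in vehicle replicate 2 and between 1.28 and 13.2 CPM elsewhere.

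Further genes set 1 tumour apart. Zfp462, a zinc-finger protein, was at 2.101 CPM in LSN replicate 3 and between 56.7 and 163 CPM elsewhere. Sgip1, an endocytic adaptor of neurons, was at 0.564 CPM in LSN replicate 3 and between 11.5 and 70.8 CPM elsewhere. Both were therefore low in the tumour whose chromosome 4 median was highest. In LSN replicate 2, Plppr1 was at 0.961 CPM against 7.41 to 35.9 CPM elsewhere. Arhgef10l and the microfibril gene Mfap2 were lowest in LSN replicate 2 too, at 6.22 and 4.76 CPM. Sytl1, a Rab effector of exocytosis, was highest in vehicle replicate 1, at 41.6 CPM against 1.45 to 23.2 CPM.

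**Figure D5:**
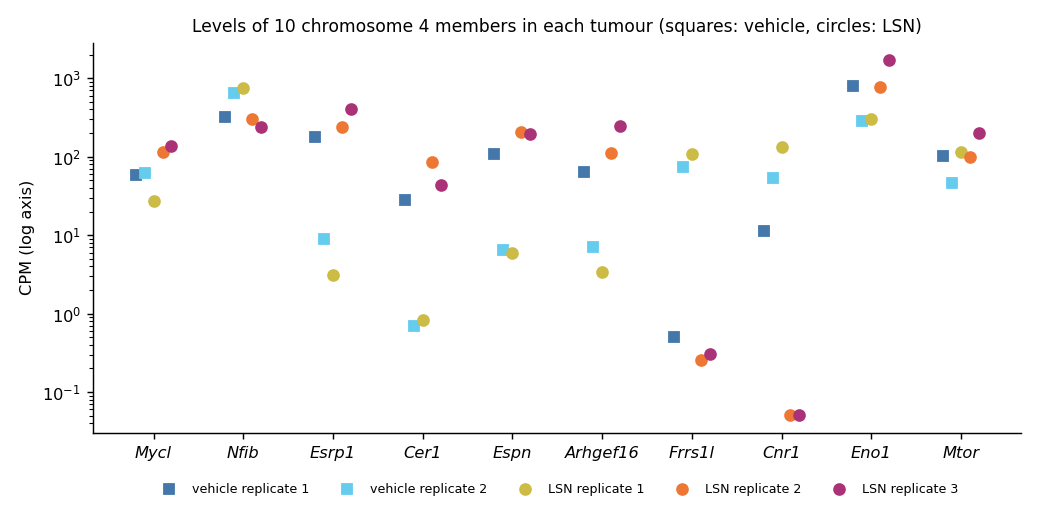
Levels (CPM, log axis) of 10 members in each tumour, squares for vehicle and circles for LSN. Esrp1, Cer1, Espn and Arhgef16 are low and Frrs1l and Cnr1 high in vehicle replicate 2 and LSN replicate 1, while Mtor has vehicle replicate 2 lowest, at 45.6 CPM, and LSN replicate 3 highest, at 198 CPM.

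LSN and vehicle tumours were then compared to ask whether chromosome 4 genes differ with the inhibitor. By the quasi-likelihood test of edgeR with Benjamini-Hochberg adjustment, 0 of the 642 members passed an adjusted p of 0.05, and 0 of all 17906 genes tested did (0%). At an unadjusted p under 0.05, edgeR had 5 members higher and 7 lower with LSN, against 1.06% and 3.21% of the 17906 genes. DESeq2 called 1 member, Snhg12, against 0.539% of the 18547 genes it gave an adjusted p, and limma-voom called 0. The groups did not overlap, with LSN higher, for 67 members (10.4%), against 8.49% of the 17906 genes. With LSN lower, they did not overlap for 19 members (2.96%), against 10.4%. The genes tested passed a count filter only and include genes below the level threshold of the members. The shares of this paragraph therefore compare sets of unlike level.

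The median log2 fold change of the members was 0.19, against 0.03 for all genes tested, and 454 of 642 members were above 0. One tumour carried this. Without LSN replicate 3 the median of the members was 0.02 and 335 were above 0. The mean of the tumours' median shifts was 0.04 ± 0.28 (SD, n = 3) with LSN and -0.03 ± 0.03 (SD, n = 2) with vehicle, a difference within the spread of the LSN tumours. For the 91 members from 147 Mb on these means were 0.23 ± 0.53 (SD, n = 3) and -0.30 ± 0.51 (SD, n = 2). The log2 fold change of Mycl was 0.72 ± 0.69 (SE) and that of Nfib -0.10 ± 0.59 (SE), with an adjusted p of 0.9996 for both by edgeR. For Nfib the sign turned when any of 3 tumours was left out, to 0.53 for vehicle replicate 2, to 0.08 for LSN replicate 2 and to 0.19 for LSN replicate 3.

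Among the members that separated the groups, those with the smallest p are named here. Higher in every LSN tumour were Acap3, an Arf GTPase activator, Clstn1, the synaptic protein calsyntenin, Necab1, a neuronal calcium-binding protein, and Ecpas, an adaptor of the proteasome. Clstn1 was at 145 and 119 CPM with vehicle and 282, 191 and 439 CPM with LSN, with a log2 fold change of 1.29 ± 0.40 (SE) by edgeR, and Necab1 was at 91.4 and 97.0 CPM with vehicle and 139, 213 and 156 CPM with LSN. The log2 fold changes of Acap3, Necab1 and Ecpas were 0.80, 0.94 and 0.63. All 4 had an adjusted p of 0.9996 by edgeR.

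Lower in every LSN tumour were Snhg12, a host gene of small nucleolar RNAs, Pdpn, the podoplanin of alveolar type 1 and lymphatic cells, Hspg2, the basement membrane protein perlecan, and Tie1, an endothelial receptor. Snhg12 was at 72.0 and 35.2 CPM with vehicle and 11.6, 8.75 and 16.2 CPM with LSN. On the log2 scale it differed by -2.04 ± 0.44 (SE), and its adjusted p was 0.9996 in edgeR but 0.0359 in DESeq2. Pdpn was at 24.8 and 43.5 CPM with vehicle and 13.1, 7.18 and 10.2 CPM with LSN. Hspg2 was at 42.3 and 81.5 CPM with vehicle and 23.7, 22.1 and 14.4 CPM with LSN, and Tie1 at 23.2 and 43.4 CPM with vehicle and 12.0, 10.6 and 7.17 CPM with LSN. Among 10 endothelial markers, Vwf was at 458 and 50.8 CPM with vehicle and 53.0, 510 and 411 CPM with LSN. The other 9, which include Tie1, summed to 252 and 477 CPM with vehicle and 127, 112 and 80.2 CPM with LSN, lower in each LSN tumour. The fibroblast and smooth muscle sum was 788 and 1589 CPM against 853, 723 and 423 CPM. All 14 normal lung markers were detected in every tumour, and their sum was also lower in each LSN tumour than in either vehicle tumour. Without Sftpc, the highest on average, the other 13 summed to 6063 and 7992 CPM with vehicle and 2085, 666 and 1733 CPM with LSN. Taken singly, Lyz2 (counted in the macrophage list too), Scgb3a2, Foxj1 and Abca3 overlapped between the groups, and the remaining markers were lower in every LSN tumour. The part of these cells in the lower levels was not tested.

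By list, LSN and vehicle differed in no member at the adjusted threshold. Members lower at an unadjusted p under 0.05 by edgeR were 4 of the 18 surface, stroma and immune cell genes and 1 of the 32 RNA processing genes. The other 6 lists had 0, and no list had a member higher at that threshold. Over all 17906 genes tested, 3.21% were lower and 1.06% higher at it. Median log2 fold changes were 0.32 for the cell cycle list, 0.31 for tumour suppressors and oncogenes and 0.21 for energy metabolism. They were 0.18 for both the regulators and the interferon list and 0.01 for RNA processing. The median was -0.11 for ribosomal proteins and -0.23 for surface, stroma and immune cell genes. Over all genes tested, which include genes below the level threshold of the members, the median was 0.03.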

How the data were processed

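Bulk RNA-seq was measured in 5 lung tumours, 2 vehicle and 3 LSN. Per the labels' protocols, the library kit keeps no strand information, paired ends were read, and the authors mapped them to mm10 (GRCm38) with STAR and used DESeq2. No STAR version, counting program or annotation is given in the sources used here. Raw read counts per gene were deposited by the authors with, as another column, the gene length in bases, used for levels per kb. All 642 members had the same start, end and strand in GENCODE M21, and 251 overlap a gene on the other strand, from which reads cannot be told apart.

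Members and gene lists were chosen with earlier results of these data known. Levels are CPM of total counts. The shift used a pseudocount of 1 CPM and the median of the other chromosomes as its zero, windows of 10 Mb with at least 20 genes where ranked, and a running median over 25 members. Members are not replicates, so no test was made over them.

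LSN and vehicle were compared on all genes with edgeR 4.0.16 in R 4.3.3 (robust quasi-likelihood fit, TMM scaling, filterByExpr with a minimum count of 10 and a total of 15). P-values were adjusted by Benjamini-Hochberg over 17906 genes, and p-values then measure only the spread between these samples. Whether tumours separated the groups was read on TMM-scaled CPM. DESeq2 1.42.0 and limma-voom (limma 3.58.1) were alternatives, with others of scaling, filter, pseudocount, level threshold, reference and left-out tumours. Both the fit and the shift were run on simulated counts with the same fixed spread for every gene. That checks the code and says nothing on power in these tumours. Named genes were Mycl, Nfib and the nearest 4 members on either side, up to 4 members per list with the widest range, per tumour the 2 highest and 2 lowest members in the distal part and before it, and the 4 per direction with the smallest p among those separating the groups. Predicted genes were left out of the last 3. Not every gene this rule takes is reported here. The labels pair no tumours.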

Additional observations from a re-analysis of the deposited data

How the results depend on the processing

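With all tumours kept, 295 recomputed values of the median shifts and of the comparison of LSN with vehicle differed from those given by less than the criterion used, and 3 by more. For shifts that criterion was the SD between tumours, which the shifts of LSN replicate 3 and vehicle replicate 2 themselves widen, so it says little on stability. The 3 that moved were the Nfib surroundings in vehicle replicate 2, at -0.11 as a mean over members, and DESeq2, which called 100 genes and 1 member where edgeR called 0. With the median of the 5 tumours in place of their mean as the reference, the chromosome 4 median of LSN replicate 3 was 0.29 and that of LSN replicate 1 -0.05, and the distal medians were 0.76 for LSN replicate 3, -0.52 for vehicle replicate 2 and -0.0015 for LSN replicate 1. With the distal part begun at 147 Mb, chosen after seeing the data, its median was 0.84 in LSN replicate 3 and -0.66 in vehicle replicate 2. Leaving out 1 tumour at a time, the Nfib surroundings of LSN replicate 3 ranged from 0.13 to 0.29, its chromosome 4 median from 0.30 to 0.36 and its distal median from 0.62 to 0.77, and the distal median of vehicle replicate 2 from -0.57 to -0.35. The chromosome 4 median of LSN replicate 1 ranged from -0.19 to -0.08 and its distal median from -0.28 to 0.00. The edgeR counts stayed at 0, with the median log2 fold change of the members between 0.02 and 0.30. The log2 fold change of Nfib ranged from -0.74 to 0.53, and its sign turned when vehicle replicate 2 (0.53), LSN replicate 2 (0.08) or LSN replicate 3 (0.19) was left out. The cause was not tested. No paired analysis was possible because the labels give the tumours no shared numbers. Whether depth or the number of tumours limits the comparison was not tested.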
